A study of Mus musculus with 6 samples.

Results

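RGD-binding integrins are the cell surface receptors that recognize the Arg-Gly-Asp motif of matrix proteins. The genes *Itgav*, *Itga5*, *Itga8*, *Itgb1*, *Itgb3*, *Itgb5*, *Itgb6* and *Itgb8* were chosen by symbol from the annotation of the array. All 8 had a probe set with no other gene symbol, and they are 8 of 18820 genes measured in this way. Where a gene had several probe sets, the brightest on average was read, which concerned only *Itgb1*. The study compared EpRas cells kept in 2 ng/ml of recombinant human TGF-β1 for 14 days (long-term EMT, n = 3) with EpRas cells left untreated (control, n = 3). EpRas cells derive from the EpH4 line, epithelial cells of the mouse mammary gland of BALB/c background, by stable overexpression of the Ha-Ras oncogene, so that control cells carry the oncogene as well and both groups come from 1 cell line. RNA came from triplicate samples. The methods speak of independent experiments in general, without saying whether the arrays of a group came from separate cultures. The p-values then rest on the variation among these arrays alone, which may be technical.

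An integrin is a pair of an alpha and a beta subunit, and both must be made for the receptor to reach the cell surface. The alpha v subunit (*Itgav*) pairs with the products of *Itgb1*, *Itgb3*, *Itgb5*, *Itgb6* and *Itgb8*, while the products of *Itga5* and *Itga8* pair with that of *Itgb1*. Fibronectin, vitronectin and tenascin C carry the motif, and so do the latency peptides of TGF-β1 and TGF-β3, from which alpha v beta 6 on epithelial cells and alpha v beta 8 can release the active cytokine. Array values are RNA values of single subunits, and the pairs on the cell surface were not measured. In cultures, fewer cells that use a gene and less RNA per cell cannot be told apart.

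Of the 8 members, *Itgb3* and *Itga5* had higher and *Itgb6* had lower expression in long-term EMT cells, and the other 5 did not pass the test. Expression is given as log2 RMA values, on which a difference of 1 is a doubling of the signal. The test was limma with p-values adjusted by Benjamini-Hochberg across the 35556 probe sets. Passing required a value under 0.05 after adjustment together with more than a 1.5-fold difference, and a gene is said to rise or fall only then. Over the whole array 0.993% of probe sets passed as higher and 0.928% as lower, 1.92% in either direction. The long-term EMT arrays did not overlap with the control arrays for 7 of the 8 members, 4 higher and 3 lower, and for 10.5% of all probe sets as higher and 8.68% as lower, 19.2% together. These shares include the 12457 probe sets with no gene symbol. They were not counted over the 18820 genes read in the same way as the members. The median log2 fold change of the members was -0.09, against 0.02 over all probe sets, with a range between -2.88 and 2.93. A background level of 4.48 was taken from 1006 probe sets of olfactory receptor genes, which mammary cells are not known to use, as the value that 95% of their means do not exceed.

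**Figure D1:**
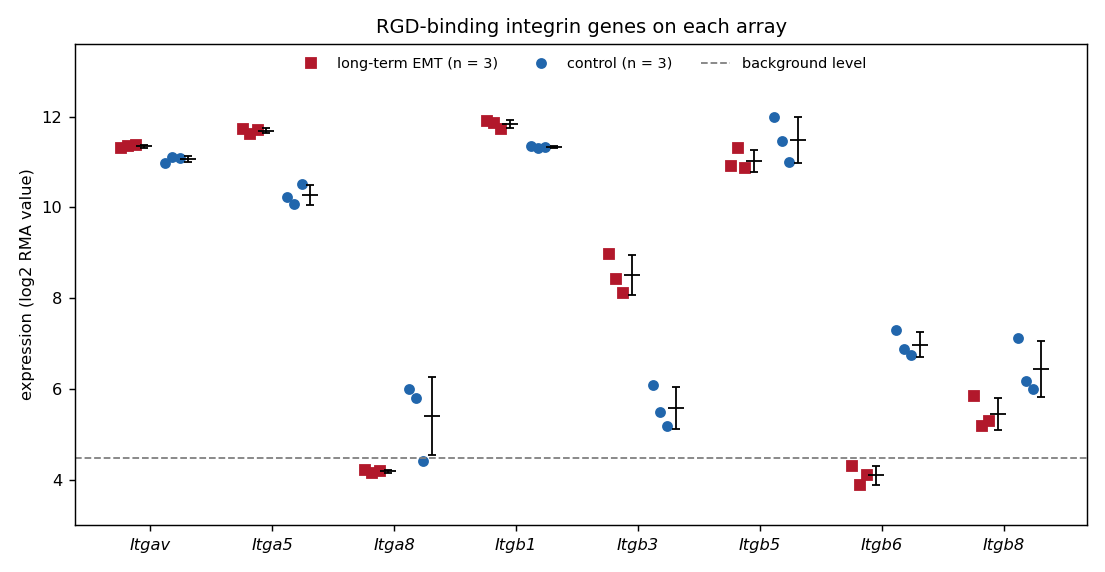
Log2 RMA value of each of the 8 RGD-binding integrin genes, by array, in long-term EMT cells (squares, n = 3) and control cells (circles, n = 3), mean and SD drawn in black and the background level of 4.48 as a dashed line. *Itgb3* and *Itga5* lie higher in long-term EMT cells, and *Itgb6* and *Itga8* lie below the dashed line there; heights of different genes cannot be compared.

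Control replicate 1 stood apart from the other arrays. Across probe sets it correlated at r = 0.987 and 0.984 with the other controls, which correlated at 0.995 with each other. Among the members it lay above the mean of the other controls by 1.05 for *Itgb8*, 0.90 for *Itga8*, 0.77 for *Itgb5*, 0.76 for *Itgb3* and 0.48 for *Itgb6* on the log2 scale. For *Itga8* this was largely due to a low control replicate 3, the control values being 6.0, 5.80 and 4.41. For *Itgav*, *Itga5* and *Itgb1* it lay within 0.12 of that mean. Without control replicate 1 the same 3 members passed. Over the whole array 472 probe sets then passed as higher and 482 as lower, against 353 and 330 with all arrays. Without any other single array fewer probe sets passed in each direction than with all arrays. A call gained or lost in such a fit is therefore not by itself particular to the gene.

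Of the members that rose, *Itgb3* had the largest difference. It encodes the beta subunit that alpha v uses in endothelial cells and osteoclasts, and that pairs with the product of *Itga2b* in platelets. Its log2 values were 8.98, 8.42 and 8.12 in long-term EMT cells, against 6.08, 5.48 and 5.17 in control cells. Every long-term EMT array lay more than 2 log2 units above the highest control array. *Itgb3* was thus 7.62-fold higher in long-term EMT cells (log2 fold change 2.93, 95% interval 2.21 to 3.65, limma adjusted p = 0.00838, n = 3 per group). The spread within the groups was wide, with an SD of 0.44 in long-term EMT cells and 0.46 in control cells. In both groups the values went down from replicate 1 to replicate 3. With the replicate number as a block in the fit *Itgb3* also passed (limma adjusted p = 0.00648). When single arrays were left out *Itgb3* passed in 4 of 6 fits, and it missed the threshold without control replicate 2 (log2 fold change 2.88, limma adjusted p = 0.0537) and without long-term EMT replicate 2 (2.97, adjusted p = 0.0571). Over the whole array 109 probe sets rose and 115 fell without control replicate 2, and 107 and 98 without long-term EMT replicate 2.

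*Itga2b*, the other partner of the *Itgb3* product, had log2 values of 6.24, 6.18 and 6.31 in long-term EMT cells, against 6.17, 6.18 and 6.27 in control cells. The groups overlapped, with a log2 fold change of 0.04 (95% interval -0.15 to 0.22). Of 5 measured markers of platelets and megakaryocytes none rose. *Ppbp*, which encodes a chemokine stored in platelets, fell (log2 fold change -2.98 with a standard error of 0.44, limma adjusted p = 0.0281). The summed signal of the list was between 195 and 242 in long-term EMT cells and between 447 and 1076 in control cells on the unlogged scale. Most of the sum in control cells came from *Ppbp*. *Itga2b*, *Gp9*, *Pf4* and *Treml1* overlapped between the groups, with log2 fold changes between 0.04 and 0.21. None of the 7 endothelial and 8 macrophage markers listed for this report passed. The lists do not hold every gene used by such cells. *Cdh5*, *Fcer1g* and *Stab1*, which the paper reports as upregulated in long-term EMT cells, are not in them. Of the macrophage markers 5 averaged above the background level in each group. *Cd68*, which encodes a lysosomal protein, had log2 values of 9.24, 9.04 and 8.48 in long-term EMT cells, against 9.23, 8.5 and 8.22 in control cells. *Mrc1*, which encodes the mannose receptor, had 7.93, 6.90 and 6.91 in long-term EMT cells, against 7.09, 6.61 and 6.55 in control cells. Both groups overlapped for these genes. *Ptprc*, *Csf1r* and *C1qa* lay between 4.69 and 5.04 on all arrays, while *Adgre1* and *C1qb* lay below the background level on all arrays and *Lyz2* averaged below it in each group. Of the endothelial markers *Tie1*, *Cldn5* and *Vwf* lay between 4.75 and 5.32 on all arrays, above the background level, and *Pecam1*, *Kdr*, *Tek* and *Emcn* lay below it on all arrays. The summed signal of the endothelial list was between 158 and 172 in long-term EMT cells and between 153 and 159 in control cells, and that of the macrophage list between 607 and 979 in long-term EMT cells and between 526 and 877 in control cells. The part of such cells in the rise of *Itgb3* was not tested.

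*Itgb6*, the beta subunit that epithelial cells use to bind and activate latent TGF-β, fell. Its log2 values were 4.29, 3.87 and 4.11 in long-term EMT cells, against 7.29, 6.88 and 6.75 in control cells. All 3 long-term EMT arrays lay below the background level and all 3 control arrays above it. The log2 fold change was -2.88 (95% interval -3.30 to -2.46, limma adjusted p = 0.00191, n = 3 per group), and *Itgb6* passed whichever array was left out. Since the long-term EMT values had reached the background level, the fall is a lower bound, and measured from the control mean to the background level *Itgb6* was at least 5.65-fold lower.

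Epithelial markers moved with *Itgb6*. All 7 lay above the background level in control cells, and *Cdh1*, *Epcam*, *Cldn7*, *Ocln* and *Krt7* fell, with log2 fold changes between -5.09 and -2.11. *Ocln* was below the background level on all long-term EMT arrays, so that its fall is a bound of at least 5.99-fold. The summed signal of these 5 genes was between 911 and 1057 in long-term EMT cells and between 5266 and 8091 in control cells on the unlogged scale, while that of all 7 markers, most of it from *Krt8* and *Krt18*, was between 13856 and 14550 in long-term EMT cells and between 17983 and 22113 in control cells. Their part in the fall of *Itgb6* was not tested. *Cdh1*, the adhesion protein of epithelial junctions, had log2 values of 4.78, 4.31 and 4.34 in long-term EMT cells, against 10.27, 9.31 and 9.12 in control cells. Only 1 of these long-term EMT arrays lay above the background level, so that the size of the *Cdh1* fall is limited by that level. The keratin genes *Krt8* and *Krt18* did not pass, with log2 fold changes of 0.00 (95% interval -0.19 to 0.19) and 0.01 (-0.23 to 0.25).

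*Itga5*, whose product forms the classical fibronectin receptor with that of *Itgb1*, rose. Its log2 values were 11.72, 11.62 and 11.71 in long-term EMT cells, against 10.22, 10.08 and 10.52 in control cells. The long-term EMT arrays were closely spaced and all lay above the highest control array. *Itga5* was 2.66-fold higher (log2 fold change 1.41, 95% interval 1.11 to 1.71, limma adjusted p = 0.00596, n = 3 per group) and passed whichever array was left out.

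Its partner *Itgb1*, the common beta subunit of matrix receptors, differed in the same direction by less than the fold threshold. The log2 values of *Itgb1* were 11.90, 11.86 and 11.73 in long-term EMT cells, against 11.35, 11.30 and 11.32 in control cells. The groups did not overlap, and the difference was 1.42-fold (log2 fold change 0.51, 95% interval 0.32 to 0.70, limma adjusted p = 0.033). At an adjusted p under 0.05 with no fold threshold it was the 1 further member to pass, where 1.17% of all probe sets passed as higher and 1.04% as lower. Its adjusted p stayed under this threshold in 1 of 6 fits with an array removed, without control replicate 1, and lay between 0.0463 and 0.153 over the 6 fits (limma). The second probe set of *Itgb1* had values of 6.16, 6.32 and 6.20 in long-term EMT cells, against 6.09, 5.87 and 5.99 in control cells, with a log2 fold change of 0.24 that did not pass (limma adjusted p = 0.317). Both probe sets lay higher in long-term EMT cells on every array.

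*Itgav*, the shared alpha v subunit, had log2 values of 11.30, 11.35 and 11.38 in long-term EMT cells, against 10.98, 11.10 and 11.09 in control cells. The long-term EMT arrays all lay above the control arrays, by a small amount. The log2 fold change was 0.29 (95% interval 0.11 to 0.47, limma adjusted p = 0.148), so that *Itgav* did not pass, and the interval ends below the fold threshold.

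*Itgb5*, which pairs with alpha v as a vitronectin receptor, was the only member whose groups overlapped. It had log2 values of 10.90, 11.30 and 10.86 in long-term EMT cells, against 12.00, 11.46 and 11 in control cells. Control replicate 1 was the highest, and the log2 fold change was -0.47 (95% interval -1.10 to 0.17, limma adjusted p = 0.541) with it and -0.21 without it. A change of 1.5-fold in *Itgb5* lies within this interval.

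*Itgb8*, the other beta subunit that serves TGF-β activation, had log2 values of 5.84, 5.18 and 5.29 in long-term EMT cells, against 7.13, 6.17 and 5.99 in control cells. The lowest control array lay 0.15 above the highest long-term EMT array. The log2 fold change was -0.99 (95% interval -1.79 to -0.19, limma adjusted p = 0.255), and without control replicate 1 it was -0.64. *Itgb8* did not pass whichever array was left out.

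*Itga8*, whose product binds nephronectin together with that of *Itgb1* and is known for its part in kidney development, had log2 values of 4.22, 4.14 and 4.18 in long-term EMT cells, against 6.0, 5.80 and 4.41 in control cells. Long-term EMT arrays and control replicate 3 lay below the background level, and control replicates 1 and 2 above it. The log2 fold change was -1.22 (95% interval -2.20 to -0.25, limma adjusted p = 0.25), and from the control mean to the background level the difference was 1.90-fold. Control replicate 3 decided this call, since without it *Itga8* passed as lower (log2 fold change -1.72, limma adjusted p = 0.00635). *Npnt*, which encodes nephronectin, had values of 6.04, 5.77 and 5.62 in long-term EMT cells, against 8.54, 7.15 and 7.12 in control cells, and was likewise not past the threshold (log2 fold change -1.79 with a standard error of 0.39, limma adjusted p = 0.0903). Control replicate 1 lay 1.41 above the other controls for *Npnt*, and without it *Npnt* passed as lower (log2 fold change -1.33, limma adjusted p = 0.0104). In that fit more probe sets passed over the whole array as well, 482 as lower against 330 with all arrays. *Npnt* was named after its values were seen. For both genes the long-term EMT arrays lay below all control arrays.

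Of 8 fibroblast markers none passed the test. *Dcn* (decorin) had log2 values of 4.44, 4.33 and 4.11 in long-term EMT cells, against 7.68, 5.98 and 4.50 in control cells, so that like *Itga8* it was lowest in control replicate 3 among the controls. *Pdgfra* had 7.66, 7.42 and 7.06 in long-term EMT cells, against 8.96, 8.26 and 7.78 in control cells, and was likewise lowest in control replicate 3. *Pdgfrb*, which encodes the other receptor of platelet-derived growth factor, had 7.96, 9.07 and 8.79 in long-term EMT cells, against 9.91, 9.55 and 10.29 in control cells, and was highest in control replicate 3. The collagen gene *Col1a1* had 7.50, 7.15 and 7.06 in long-term EMT cells, against 6.84, 6.44 and 6.58 in control cells, with the long-term EMT arrays all above the control arrays (log2 fold change 0.62, 95% interval 0.24 to 0.99, limma adjusted p = 0.137). *Thy1*, *Col1a2*, *Col3a1* and *Lum* overlapped between the groups, and *Lum* lay below the background level on all arrays. The summed signal of the 8 markers on the unlogged scale was between 783 and 1019 in long-term EMT cells and between 1334 and 1910 in control cells. The part of such cells in the values of *Itga8* was not tested.

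The beta subunits that share alpha v moved unequally. On each array the log2 value of *Itgb3* minus that of *Itgb6* was taken, of which only the change between groups can be read, since the signals of different probe sets are not on 1 scale. This difference was 4.69, 4.55 and 4.01 in long-term EMT cells, against -1.21, -1.40 and -1.58 in control cells. The measured change was 5.81 on the log2 scale, and with *Itgb6* in long-term EMT cells taken at the background level it was at least 5.43. This pair was chosen with the values of both genes known. A two-sided exact permutation test over the 6 arrays gave p = 0.1, the smallest value it can reach. The test can therefore decide nothing here, and the difference is a description. Relative to *Itgav* on the same array, *Itgb3* changed by 2.64, *Itgb1* by 0.22, *Itgb5* by -0.75 and *Itgb8* by -1.28. Without control replicate 1 these changes were 2.93, 0.27, -0.46 and -0.89. *Itgb6*, whose long-term EMT values lay below the background level, had a measured change of -3.17 relative to *Itgav*, and one of -2.79 with the background level in their place, which is a bound on its fall. *Itga5* relative to *Itgb1* changed by 0.90, and by 0.86 without control replicate 1. The changes relative to *Itgav* and *Itgb1* were chosen after the values were seen and were not tested.

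**Figure D2:**
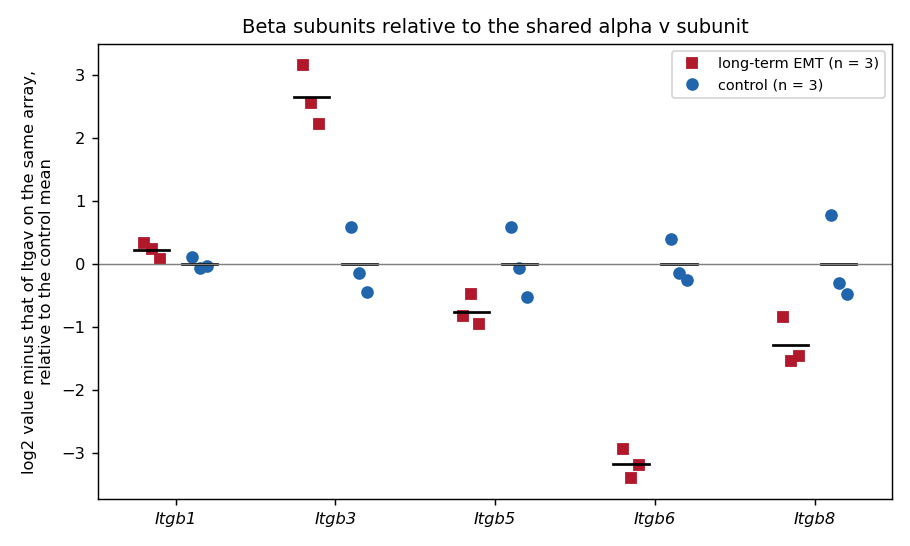
Log2 value of each beta subunit gene minus that of *Itgav* on the same array, relative to the control mean, in long-term EMT cells (squares, n = 3) and control cells (circles, n = 3), with group means as black lines. *Itgb3* lies 2.64 above the control mean, and *Itgb6* lies lowest, at measured values that were below the background level in long-term EMT cells. *Itgb8* and *Itgb5* lie between *Itgb6* and zero.

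Promoter windows of the members, of 250 bases before to 50 bases after a RefSeq gene start on GRCm38.p6, are given to show the sequence at which these genes begin. Of the 8 members 7 matched an entry, *Itgb6* with 2 starts. *Itgb3* is named only. Windows are shown for *Itgb6*, which fell, for *Itgb8*, the other activator of latent TGF-β, and for *Itga5*, which rose. Each reads 5′ to 3′ in the direction of the gene, in lower case, with the E-box CACCTG, the motif bound by Zeb factors, in capitals on either strand (CAGGTG on the other).
*Itgb6*, upstream start, chr2:60722554-60722853, minus strand: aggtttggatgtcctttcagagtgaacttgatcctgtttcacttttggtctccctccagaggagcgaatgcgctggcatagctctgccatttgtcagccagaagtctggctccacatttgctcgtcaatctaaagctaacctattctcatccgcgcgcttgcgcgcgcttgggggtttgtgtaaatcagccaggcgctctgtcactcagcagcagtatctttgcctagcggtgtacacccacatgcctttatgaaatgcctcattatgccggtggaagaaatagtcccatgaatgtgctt
*Itgb6*, inner start, chr2:60673644-60673943, minus strand: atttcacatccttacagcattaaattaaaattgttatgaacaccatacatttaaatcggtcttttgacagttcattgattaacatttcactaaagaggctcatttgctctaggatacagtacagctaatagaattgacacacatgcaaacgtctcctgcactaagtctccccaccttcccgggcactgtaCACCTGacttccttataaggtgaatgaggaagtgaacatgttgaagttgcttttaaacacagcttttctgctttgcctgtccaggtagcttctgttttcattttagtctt
*Itgb8*, chr12:119238227-119238526, minus strand: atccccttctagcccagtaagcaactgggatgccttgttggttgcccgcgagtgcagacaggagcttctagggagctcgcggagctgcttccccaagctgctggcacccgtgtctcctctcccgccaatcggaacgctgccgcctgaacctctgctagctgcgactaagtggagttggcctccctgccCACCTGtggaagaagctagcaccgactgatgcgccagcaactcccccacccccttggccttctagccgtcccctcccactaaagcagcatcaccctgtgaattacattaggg
*Itga5*, chr15:103366742-103367041, minus strand: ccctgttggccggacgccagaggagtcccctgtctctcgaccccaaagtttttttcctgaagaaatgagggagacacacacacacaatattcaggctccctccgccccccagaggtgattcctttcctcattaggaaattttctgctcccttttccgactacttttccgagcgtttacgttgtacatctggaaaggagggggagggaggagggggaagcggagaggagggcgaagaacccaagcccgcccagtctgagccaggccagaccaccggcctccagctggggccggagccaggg
The E-box was present once in the window of the inner *Itgb6* start, at position -60 from the start, once in that of *Itgb8*, at -62, and once in that of *Itgb5*, at -109. The windows of *Itga5*, *Itgav*, *Itgb1* and *Itga8* and the upstream *Itgb6* start held none. Of all 32851 promoter windows of the same length, 20.2% hold it, so that 3 of 8 windows is a description of few sequences. Among the other motifs searched on both strands, GGAATG of TEAD factors stood in the *Itgb1* window, at -7, and in 14.7% of all windows, while TGANTCA of AP-1 (7.81% of all windows) and GTCTAGAC of Smad factors (0.213%) stood in none of the 8. The motifs do not overlap each other in these windows. The arrays do not show which start the cells used or which factors were bound.

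Among the other integrin subunits 2 of 19 rose and none fell, with 17 that did not pass and a median log2 fold change of -0.02. *Itga2*, which forms a collagen receptor with the product of *Itgb1*, had log2 values of 11.23, 10.91 and 11.18 in long-term EMT cells, against 9.73, 8.82 and 8.55 in control cells (log2 fold change 2.07 with a standard error of 0.30, limma adjusted p = 0.0272). *Itga7*, a laminin receptor subunit that also pairs with that of *Itgb1*, had values of 6.85, 6.66 and 6.53 in long-term EMT cells, against 5.28, 5.54 and 5.74 in control cells (log2 fold change 1.16 with a standard error of 0.14, limma adjusted p = 0.0163). Both alpha subunits that rose here share their beta partner with *Itga5*, but so do *Itgav* and *Itga8*, which did not pass. When 1 array was left out *Itga2* passed in 1 of 6 fits, without control replicate 1, and *Itga7* in 2 of 6, without control replicate 1 and without control replicate 3. Of the 19 subunits, 7 averaged less than the background level in each group, among them the leukocyte subunits *Itgal*, *Itgam* and *Itgax*. Other leukocyte subunits lay above it on all arrays and did not pass. *Itgb2* averaged 8.22 in long-term EMT cells and 8.18 in control cells, and *Itgb7* 5.80 and 6.11. In the plot of all 27 subunits, *Itgb6* had the largest fall and *Itgb3* the largest rise by value.

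**Figure D3:**
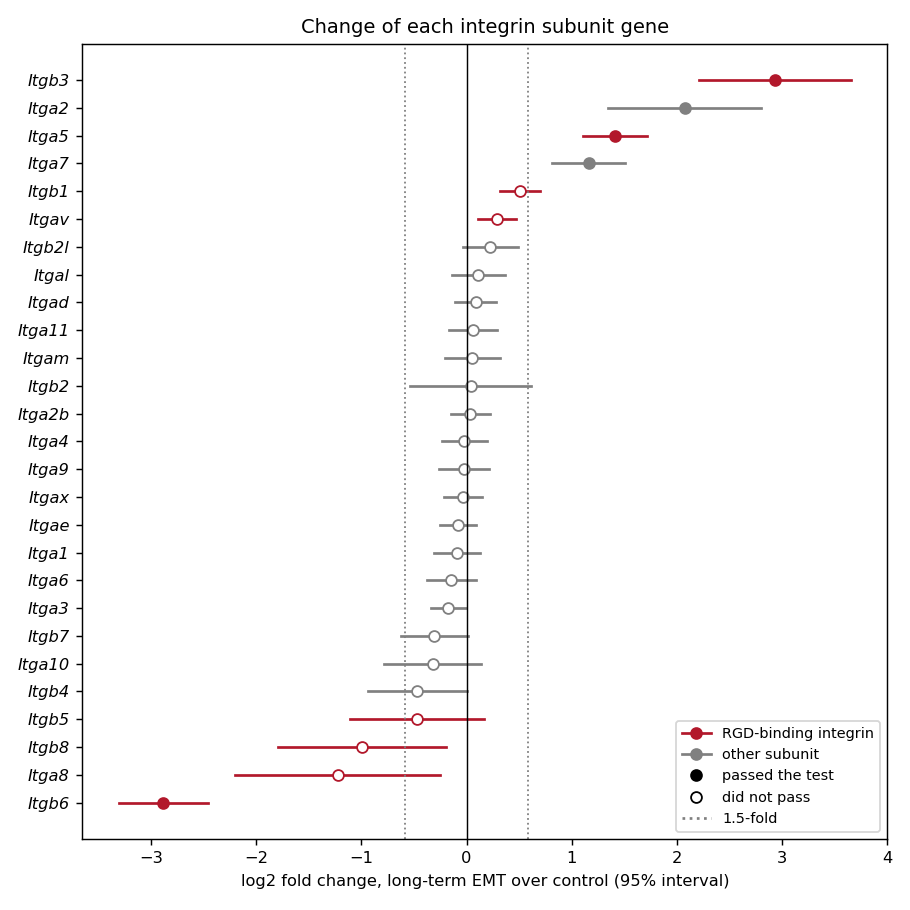
Log2 fold change of each of 27 integrin subunit genes, long-term EMT over control, with the 95% interval from limma (n = 3 per group). RGD-binding members are red and other subunits grey, filled points passed the test, and dotted lines mark a 1.5-fold change; *Itgb3* (2.93) and *Itgb6* (-2.88) lie at the ends of the range.

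Of 23 ligands and matrix partners of these receptors 21 were measured, 2 rose, none fell and 19 did not pass, with a median log2 fold change of 0.10. *Tnc*, which encodes tenascin C, a matrix protein bound by alpha v integrins, had log2 values of 12.40, 12.25 and 12.23 in long-term EMT cells, against 9.35, 8.79 and 8.94 in control cells. It was 9.62-fold higher (log2 fold change 3.27 with a standard error of 0.15, limma adjusted p = 0.0012) and passed whichever array was left out. *Ccn2* (connective tissue growth factor), an integrin-binding matricellular protein, had log2 values of 12.07, 11.93 and 11.85 in long-term EMT cells, against 9.81, 10.15 and 10.51 in control cells (log2 fold change 1.79 with a standard error of 0.18, limma adjusted p = 0.00835). *Ccn2* did not pass without control replicate 2 or without long-term EMT replicate 2.

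The fibronectin gene *Fn1*, whose product is the main ligand of the receptor with *Itga5*, had log2 values of 13.07, 12.98 and 12.96 in long-term EMT cells, against 12.98, 12.77 and 12.74 in control cells. The groups overlapped, and the log2 fold change was 0.17 (95% interval -0.05 to 0.40), so that a 1.5-fold change lies outside the interval. The vitronectin gene *Vtn* averaged 4.21 ± 0.33 in long-term EMT cells and 3.91 ± 0.19 in control cells as log2 values (SD, n = 3 each), both below the background level. *Spp1* (osteopontin) and *Fbn1* had no probe set of their own and were not analysed here.

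Of the 9 genes of latent TGF-β, 2 rose and 7 did not pass, with a median log2 fold change of -0.13. *Tgfb2* had log2 values of 6.95, 7.02 and 7.15 in long-term EMT cells, against 6.01, 5.38 and 5.49 in control cells (log2 fold change 1.41 with a standard error of 0.17, limma adjusted p = 0.0156). *Lrrc32*, which encodes the anchor of latent TGF-β on the cell surface known as GARP, had values of 5.57, 5.60 and 5.37 in long-term EMT cells, against 4.50, 4.12 and 4.59 in control cells. The control mean of *Lrrc32* lay below the background level, so that its rise (log2 fold change 1.11 with a standard error of 0.14, limma adjusted p = 0.0187) is a lower bound, at least 2.05-fold. *Tgfb2* passed in 2 and *Lrrc32* in 3 of the 6 fits with an array removed. Neither passed when any long-term EMT replicate was removed, nor *Tgfb2* without control replicate 2. *Tgfb1* and *Tgfb3*, whose latency peptides carry the motif, did not pass, with log2 fold changes of 0.01 (95% interval -0.71 to 0.72) and -0.30 (-0.96 to 0.36). Control replicate 1 lay 1.01 and 0.94 above the other controls for these genes.

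Of 32 genes of integrin activation and the adhesion machinery 28 were measured, 3 rose, 2 fell and 23 did not pass, with a median log2 fold change of 0.12. *Ptk2*, the gene of focal adhesion kinase itself, and *Lims2*, *Nedd9* and *Actn4* had no probe set of their own and were not analysed. Kindlins bind the tails of beta subunits and switch integrins on. The kindlin gene *Fermt1* had log2 values of 11.31, 11.15 and 10.97 in long-term EMT cells, against 9.98, 9.45 and 9.12 in control cells (log2 fold change 1.63 with a standard error of 0.22, limma adjusted p = 0.0231). *Fermt2*, another kindlin gene, had values of 10.72, 10.61 and 10.70 in long-term EMT cells, against 9.77, 10.00 and 10.10 in control cells (log2 fold change 0.72 with a standard error of 0.11, limma adjusted p = 0.0276). *Fermt3*, the kindlin gene of blood cells, did not pass, with a log2 fold change of 0.06 (95% interval -0.19 to 0.31).

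*Ptk2b*, which encodes a kinase related to focal adhesion kinase, had log2 values of 9.57, 9.55 and 9.61 in long-term EMT cells, against 8.69, 8.64 and 8.79 in control cells (log2 fold change 0.87 with a standard error of 0.08, limma adjusted p = 0.00582). *Tns3*, a tensin that binds the tails of beta subunits, fell, with values of 8.95, 8.54 and 8.77 in long-term EMT cells, against 9.96, 10.27 and 10.30 in control cells (log2 fold change -1.42 with a standard error of 0.14, limma adjusted p = 0.00835). *Dab2*, an adaptor for integrin endocytosis, fell (log2 fold change -0.60 with a standard error of 0.10, limma adjusted p = 0.0364), just past the fold threshold. *Src* and *Ilk*, kinases of adhesion sites, had log2 fold changes of 0.51 (limma adjusted p = 0.0402) and 0.49 (limma adjusted p = 0.0454), below it. *Src*, *Ilk*, *Fermt3* and *Tln1* were named after their values were seen. When 1 array was left out, *Ptk2b* passed in 6, *Tns3* in 4, *Fermt1* and *Fermt2* in 2 and *Dab2* in 0 of the 6 fits. *Tns3* did not pass without control replicate 2 or long-term EMT replicate 3. *Fermt1* and *Fermt2* passed without control replicate 1 and without control replicate 3. *Tln1* (talin), which binds beta tails together with kindlins, did not pass (log2 fold change 0.28, 95% interval 0.01 to 0.54).

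**Figure D4:**
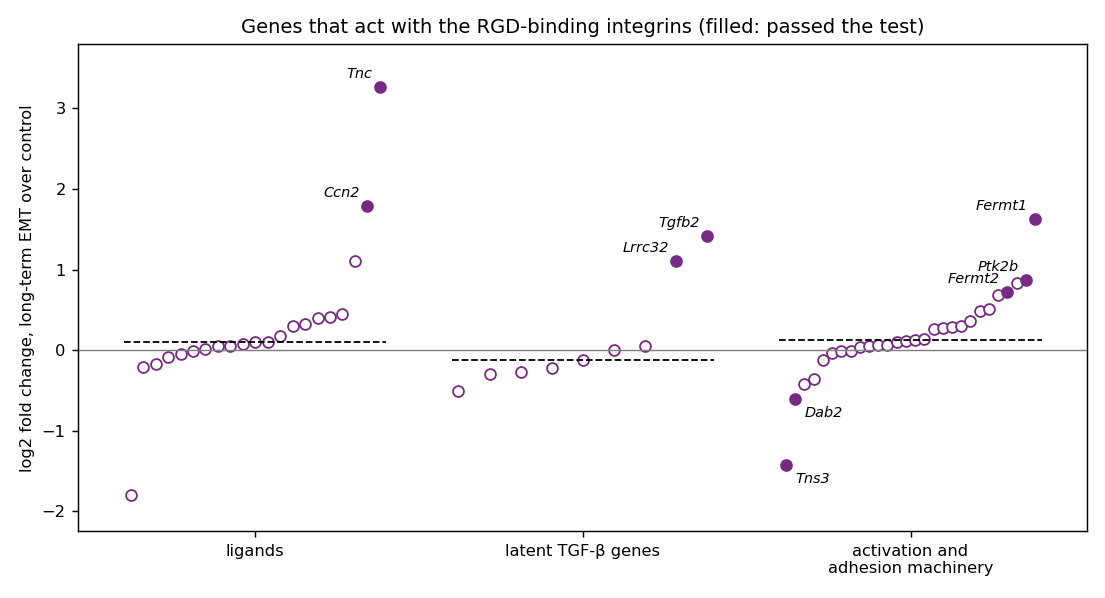
Log2 fold change, long-term EMT over control (n = 3 per group), of the 21 measured ligands, 9 latent TGF-β genes and 28 genes of the activation and adhesion machinery, each ordered by value, with the list median as a dashed line. Filled and named points passed the test; they number 2, 2 and 5.

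Genes with patterns most like those of the members that passed were sought over the 6 arrays, by the smallest root mean square difference of log2 values after each gene was centred on its own mean. Nearest to *Itgb3* were *Fam167a* (0.12), *Gng11* (0.21) and *Ctsw* (0.24), where the value is this difference in log2 units. Nearest to *Itga5* were *Inhba* (0.07), the inhibin and activin beta A subunit, *Chst11* (0.10) and *Tmem268* (0.11). Nearest to *Itgb6* were *Tuba8* (0.08), *Lsr* (0.08), a gene of tricellular junctions, and *Sult2b1* (0.11). The long-term EMT values of *Itgb6* were below the background level, so that its likeness to these genes rests in part on values that are not measured levels. *Fam167a*, the nearest to *Itgb3*, had log2 values of 9.35, 8.98 and 8.55 in long-term EMT cells, against 6.40, 5.67 and 5.63 in control cells. Replicate 1 was the highest in both groups for *Itgb3* and *Fam167a*. The same held for *Gng11* and *Ctsw* and for the genes nearest to *Itgb6*. Likeness within the groups is part of how these genes were chosen, and is no separate result. The 6 arrays are shared by all genes, so that likeness includes whatever sets control replicate 1 or long-term EMT replicate 1 apart.

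**Figure D5:**
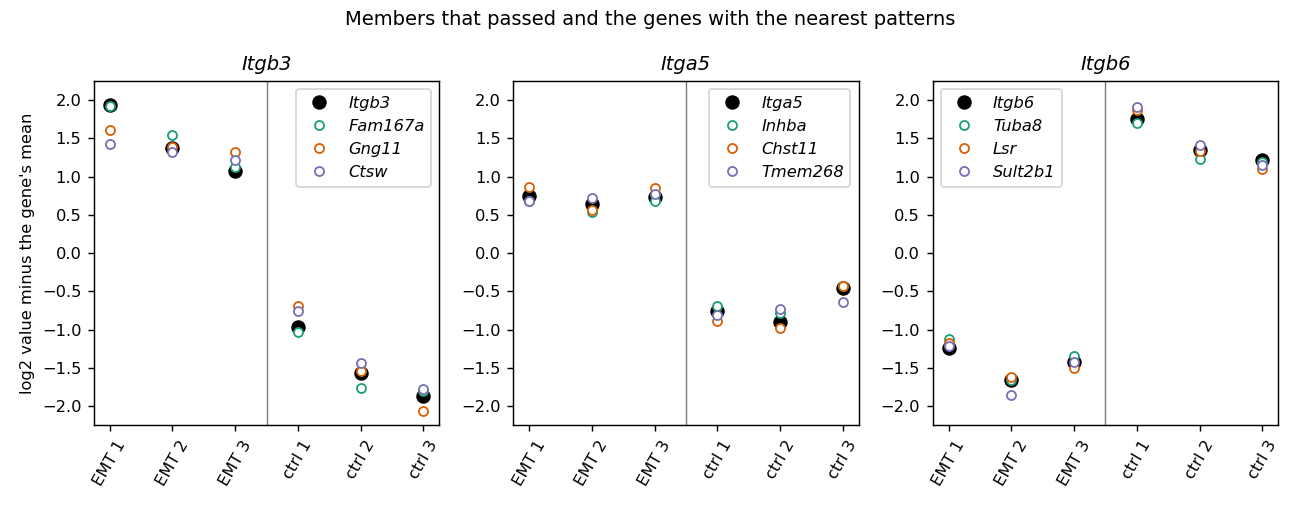
Log2 value minus the mean of the gene on each array, long-term EMT arrays left and control arrays right of the line, for *Itgb3*, *Itga5* and *Itgb6* (filled) and the 3 genes nearest to each (open). The nearest genes lie within a root mean square difference of 0.24 log2 units of their member.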

How the data were processed

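Total RNA, 150 ng per sample, was hybridized to Affymetrix MoGene-1_1-st-v1 arrays, 1 array for each of 6 samples. The deposited values are log2 expression that the authors computed by RMA (robust multi-array averaging). The submitters' processing notes name Affymetrix Expression Console without a version, and values have 2 decimals. RMA equalizes the distributions of the arrays, so that a shift common to all genes cannot be seen, and it compresses changes of dim genes. The number of arrays limits the precision.

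Of 35556 probe sets 21218 have 1 gene symbol in the platform annotation, 1881 several and 12457 none, and only the first named a gene. Values were used as deposited. The 2 groups of arrays were set against each other by lmFit and eBayes of limma 3.58.1, under R 4.3.3, on all probe sets without a block. On simulated arrays, the test recovered 57 of 100 probe sets changed 2-fold and 87 of 100 changed 4-fold. The noise there was independent between arrays, and only probe sets averaging above the background level were changed. The share changed was set and not taken from the data, so that these rates need not hold for the real arrays. Where 1 group mean of a member, or of another gene that passed, lay below the background level, the fold to that level is given as a bound. Named are all members, up to 6 passing genes per list with the largest change, partners and ligands of passing members, and 3 genes of like pattern per passing member. Members and lists were chosen with earlier results of these data known. Promoter sequences are those of RefSeq (GRCm38.p6). The methods' t-test, a trended and robust prior, other fold thresholds, a replicate block, 2 further normalizations, a filter on dim probe sets, probe set means and leaving out each array were tried. Limma at an unadjusted p, and differences relative to *Itgav* and *Itgb1*, were added after the data were seen.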

Additional observations from a re-analysis of the deposited data

How the results depend on the processing

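In the main analysis 2 members rose and 1 fell. These counts were the same with a trended and robust prior, a fold above 2, a repeated quantile normalization, arrays set to equal medians, omission of dim probe sets, probe set means per gene and the methods' t-test at an unadjusted p. With no fold threshold 3 rose and 1 fell, *Itgb1* being added. With the methods' t-test after Benjamini-Hochberg adjustment 0 members rose and 0 fell, where 43 probe sets rose and 26 fell over the whole array, and the adjusted p was 0.0536 for *Itgb6*, 0.0798 for *Itga5* and 0.105 for *Itgb3*. At an unadjusted p under 0.05 from limma 2 rose and 3 fell, *Itga8* and *Itgb8* being added. With 1 array left out, between 1 and 2 members rose and between 1 and 2 fell. No member changed direction under any alternative. The measured *Itgb3* minus *Itgb6* change was 5.81 when quantile normalized again and between 5.68 and 6.02 with 1 array left out.

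With the replicate number as a block 2 members rose and 1 fell, and 256 probe sets rose and 278 fell, against 353 and 330 without it. The limma adjusted p was lower with the block for *Itgb3* (0.00648), *Itgb8* (0.0618), *Itga8* (0.223) and *Itgb5* (0.458). It was higher for *Itga5* (0.0196), *Itgb6* (0.00707), *Itgb1* (0.0885) and *Itgav* (0.221). The latent TGF-β list then had 0 rises, the other integrin subunits 1, and the machinery 2 rises and 1 fall. Deviations of arrays from their group mean correlated at 0.19, 0.02 and 0.25 between arrays with the same number. Within a group these deviations cancel, so that arrays with different numbers must covary negatively on balance. The main fit had no block, but a pairing of the samples remains possible. With 1 array left out, between 107 and 472 probe sets rose and between 98 and 482 fell. The methods' t-test at an unadjusted p gave 638 and 688, and limma at an unadjusted p 785 and 915. A fold above 2 gave 194 higher probe sets, and left 1 rise and 1 fall in the machinery, which had 5 rises with no fold threshold. Of the ligands, the t-test at an unadjusted p gave 3 higher and 1 lower.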
